A study of Homo sapiens with 2 samples.

Results

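The genes described here are 55 that carry out the start and the run of DNA replication, from the marking of origins to the joining of Okazaki fragments. They were listed by name from their roles in replication, and the spots of the array were matched to them through RefSeq accessions. Of the 55, 54 had a spot that could be named, among 21743 genes so named in all, and 53 gave a ratio, against 16052 of all named genes. POLA2, the second subunit of DNA polymerase alpha, had no spot named in this way and was not analysed here. CDC6 had 1 spot, whose signal was well above background on neither array. The cells were MRC-5, fibroblasts from human fetal lung. They were transfected either with control siRNA or with 10 nM siRNA against POSTN, the gene of periostin, for 48 h. The dose and the time of the control siRNA on the arrays are not given in the sources used here. RNA of 1 culture per condition was hybridized to 1 single-colour Agilent array, so no replicate was available, no test between the conditions could be made and no p-value is given.

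A cell licenses its origins in G1, when the origin recognition complex (ORC), CDC6 and CDT1 load the ring of MCM2, MCM3, MCM4, MCM5, MCM6 and MCM7 around DNA. In S phase the CDC7 kinase with its activator DBF4, together with cyclin-dependent kinases, turns the loaded ring into an active helicase by adding CDC45 and the GINS complex, and then DNA polymerases alpha, delta and epsilon, the sliding clamp PCNA and the clamp loader RFC copy the strands. Many of these genes are transcribed around the entry into S phase under E2F transcription factors, and fibroblasts that leave the cycle turn many of them down. In a bulk RNA sample, a smaller share of cells in S phase and less RNA of a gene in each cell cannot be told apart.

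Signals are given as the background-subtracted intensity of a spot, scaled so that the 75th percentile of both arrays was 377, and the log2 ratio is that of periostin siRNA to control siRNA. Each gene was represented by its brightest probe, which was printed once for 47 of the 53 genes and 10 times for 6, for which the mean over the spots is given. The error of a single spot is the one that the scanner software propagates, and it was below 0.30 on the log2 scale for 48 of the 53 genes and at least 0.20 for all of them. Over the 667 probes printed 10 times with every spot well above background, the log2 ratio had a pooled SD between spots of 0.12, which was 0.24 for the dimmest 134 and 0.05 for the brightest 133. None of these errors covers the difference between cultures, or between probes of a gene, which reached 0.72 for PRIM2. Where the lowest and highest subunit of a complex are compared below, the pair was picked by its values. The combined error given there is that of a pair fixed beforehand, and extremes of several values differ by more than such a pair. The targeted gene POSTN had a signal of 2638 in the control and 279.8 after knockdown, so its log2 ratio was -3.24, and GAPDH gave 0.04 ± 0.04 (SD over 10 spots). All 10 fibroblast markers examined, such as VIM and COL1A2, were well above background on both arrays. Of 5 epithelial markers 3 were, and the summed signal of the 5 was 239 in the control and 537 after knockdown, with EPCAM at 34.6 and 135 while CDH1 and KRT5 were not well above background on either array. Of the 4 immune markers that could be named 2 were well above background on both arrays, with a summed signal of 1557 and 2488, most of it from CD68, which fibroblasts also express, while PTPRC was at 17.6 and 25.1. The 4 endothelial markers summed to 133 and 130.2 and the 2 smooth muscle markers to 277 and 321. The part of these markers in the results was not tested.

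Most replication genes had a lower signal with periostin siRNA, but few by a large factor. The log2 ratio was below 0 for 49 of the 53 genes, which is 92.5%, whereas it was below 0 for 45.5% of all named genes. The median was -0.48 for the replication genes and 0.06 for all named genes. Lower by more than 2-fold were 16 of the 53, or 30.2%, against 6.42% of all named genes, and lower by more than 3-fold were 5, or 9.43%, against 2.75%. These 5 were DTL, CDC45, DSCC1, RFC3 and ORC1. ORC1, MCM10, TICRR and CLSPN were well above background with control siRNA alone, so by the rule used their ratio could only be below 0. Of the 49 genes well above background on both arrays, 45 had a ratio below 0 and 13 were lower by more than 2-fold. By more than 3-fold 4 of them were lower, against 2.39% of all named genes so detected. Their median was -0.47, against 0.05. RFC3 passed the threshold by less than its propagated error of 0.26, and ORC1 by a bound from a dim spot, at least 3.26-fold lower. The next below the threshold were CLSPN, at least 2.97-fold lower, GINS4, 2.89-fold, and CDT1, 2.86-fold. No replication gene was higher by more than 2-fold, against 7.97% of all named genes, or by more than 3-fold, against 3.37%. PRIM2, LIG1, RFC1 and PCNA were the 4 genes with a ratio above 0, between 0.42 and 0.85.

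The normexp background correction adds an offset of 50 to every spot and so draws dim ratios towards 0. With it the median of the 53 genes was -0.38, against 0.04 for all named genes. CDC45, DTL, CDT1, GINS4 and POLA1 were then the 5 lower by more than 2-fold. The share of all named genes lower by more than 2-fold with normexp was not counted. CDC45 alone was lower by more than 3-fold, 1 of the 53 genes, against 1.19% of all named genes.

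**Figure D1:**
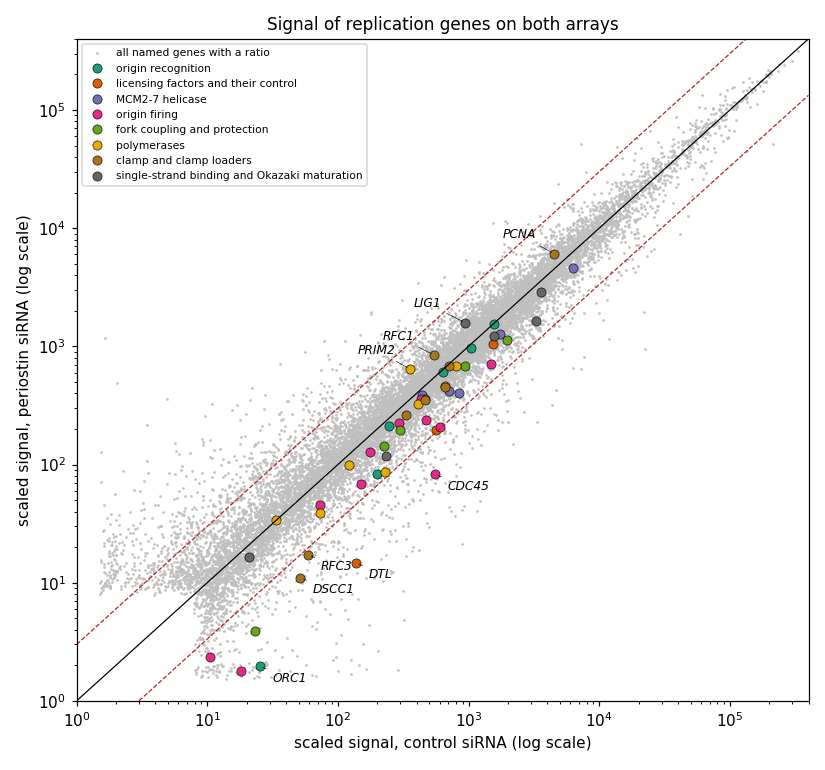
Scaled signal of each gene with control siRNA (horizontal, log scale) and with periostin siRNA (vertical, log scale), 1 array each. Grey points are the 16052 named genes with a ratio and coloured points the 53 replication genes by step. The solid line marks equal signal and the dashed lines 3-fold. Most coloured points lie just under the solid line. DTL, CDC45, DSCC1, RFC3 and ORC1 are labelled under the lower dashed line, where MCM10, CLSPN and TICRR also lie because signals not well above background are drawn as measured, and PCNA, LIG1, RFC1 and PRIM2 lie above the solid line.

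The stretch from 250 bases before to 50 bases after the transcription start was available from RefSeq (GRCh38.p14) for 46 of the 55 genes. There was none for MCM4, MCM5, GINS4, RECQL4, POLD3, RPA2, RPA3, DNA2 and DSCC1. A form of the E2F site, TTTCCCGC, TTTGGCGC, TTTCGCGC or TTTGCCGC on either strand, was present in 21 of the 46, or 45.7%, against 3.31% of all 35116 promoters and 4.96% of the 12407 promoters of genes measured here. TTTCCCGC was held by 10 of the 46, TTTGGCGC by 8, TTTCGCGC by 6 and TTTGCCGC by 0. CCAAT, the box bound by NF-Y, was present in 27, or 58.7%, against 34.6% and 36.1%. TTTGAA, the cell cycle homology region of many genes of late cell cycle, was present in 1 of the 46, or 2.17%, against 15.2% of all promoters and 10.5% of those of measured genes, and its variant TTTAAA also in 1, against 12.2% and 8.24%. The E2F forms were in 6 of the 13 genes lower by more than 2-fold with a promoter and in 13 of the 31 others that were measured, and CCAAT was in 9 of the 13 and 17 of the 31. A match is a run of letters and not a measured site, and a missing match says only that these letters are not in the window.

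The promoters of 6 genes are shown, 4 genes with a lower signal by more than 2-fold and 2 with a higher one. RFC1 and PRIM2, which also had a ratio above 0, are not shown, and their promoters hold none of the E2F forms. Each runs 5′ to 3′ on the strand of the gene, with the transcription start after the first 250 bases and the E2F forms and CCAAT, on either strand, in capitals. In MCM6 (chr2:135876394-135876693, minus strand, log2 ratio -1.07) each of 2 blocks of capitals is TTTGGCGC overlapping TTTCGCGC read on the other strand, and 2 further ones are CCAAT on the other strand. DTL (chr1:212035498-212035797, plus strand, -3.22) has TTTGGCGC with its first base 8 bases before the start and CCAAT upstream of it. POLA1 (chrX:24693668-24693967, plus strand, -1.42) has TTTGGCGC and CCAAT, both on the other strand. CDC45 (chr22:19479670-19479969, plus strand, -2.75) has CCAAT 4 times and none of the E2F forms. PCNA (chr20:5126573-5126872, minus strand, 0.42) has TTTCCCGC on the other strand and CCAAT 3 times. LIG1 (chr19:48170295-48170594, minus strand, 0.75) has TTTCCCGC and no CCAAT.
MCM6: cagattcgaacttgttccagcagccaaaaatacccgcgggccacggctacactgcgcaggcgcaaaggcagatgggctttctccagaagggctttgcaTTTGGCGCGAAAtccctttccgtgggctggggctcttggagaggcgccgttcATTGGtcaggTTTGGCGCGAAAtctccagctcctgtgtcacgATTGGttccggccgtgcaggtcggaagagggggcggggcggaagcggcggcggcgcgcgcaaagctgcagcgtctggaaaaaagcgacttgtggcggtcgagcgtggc
DTL: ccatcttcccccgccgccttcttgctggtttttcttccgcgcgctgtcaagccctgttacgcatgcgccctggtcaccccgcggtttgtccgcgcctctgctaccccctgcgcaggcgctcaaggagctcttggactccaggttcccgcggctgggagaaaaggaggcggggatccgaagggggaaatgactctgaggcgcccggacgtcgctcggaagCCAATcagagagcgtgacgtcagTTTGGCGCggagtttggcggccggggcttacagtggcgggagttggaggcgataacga
POLA1: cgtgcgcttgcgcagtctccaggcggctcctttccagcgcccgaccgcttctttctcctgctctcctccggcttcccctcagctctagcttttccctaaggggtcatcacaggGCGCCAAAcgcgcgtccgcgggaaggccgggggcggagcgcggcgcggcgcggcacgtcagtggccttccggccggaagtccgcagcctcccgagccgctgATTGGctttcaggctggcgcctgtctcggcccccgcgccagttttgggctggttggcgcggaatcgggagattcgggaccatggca
CDC45: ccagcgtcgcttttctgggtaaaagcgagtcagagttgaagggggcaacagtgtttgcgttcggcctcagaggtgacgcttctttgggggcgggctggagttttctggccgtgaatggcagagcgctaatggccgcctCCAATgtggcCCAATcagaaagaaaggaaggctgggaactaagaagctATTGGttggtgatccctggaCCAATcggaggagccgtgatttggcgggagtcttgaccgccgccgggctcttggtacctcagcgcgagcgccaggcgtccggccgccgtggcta
PCNA: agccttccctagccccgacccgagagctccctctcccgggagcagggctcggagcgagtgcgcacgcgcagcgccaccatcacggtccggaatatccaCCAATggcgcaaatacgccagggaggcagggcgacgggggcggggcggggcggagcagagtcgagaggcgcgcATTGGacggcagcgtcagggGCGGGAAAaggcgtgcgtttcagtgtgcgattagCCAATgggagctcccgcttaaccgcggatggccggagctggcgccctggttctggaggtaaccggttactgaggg
LIG1: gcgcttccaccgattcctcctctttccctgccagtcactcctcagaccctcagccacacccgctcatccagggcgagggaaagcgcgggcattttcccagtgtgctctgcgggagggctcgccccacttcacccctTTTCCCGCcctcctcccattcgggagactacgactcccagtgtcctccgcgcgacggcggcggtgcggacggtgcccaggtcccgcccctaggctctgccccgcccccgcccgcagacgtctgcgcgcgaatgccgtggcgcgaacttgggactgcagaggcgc

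Of the 6 ORC subunits, which mark origins, ORC1 and ORC6 stood apart from the other four. ORC1, the subunit that brings ATPase activity and is degraded after licensing in human cells, had a signal of 25.3 with control siRNA and one not well above background, 1.96, with periostin siRNA, and was at least 3.26-fold lower. The measured ratio of these signals, -3.70, compares with a signal in the noise and is no estimate. ORC6, the smallest subunit, was at 199.9 and 83.2, a log2 ratio of -1.27 ± 0.22 (SD over 10 spots), and 1 of its 10 spots carried an outlier flag. The other subunits lay close to equal signal, each with a propagated error of 0.20. ORC2 was at 248 and 213 (-0.22), ORC4 at 637 and 602 (-0.08) and ORC5 at 1035 and 969.8 (-0.09). ORC3 was at 1561 and 1557 (-0.0041) and its sign turned without scaling between the arrays. A dimmer probe of ORC4 gave 0.04. ORC6 and ORC3 differed by 1.26 with a combined error of 0.29. The median of the 6 was -0.16. With normexp the bound of ORC1 was -0.38, and ORC6 was at -0.87, less than 2-fold.

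Among the factors that allow and limit loading, DTL had the lowest ratio of the 49 genes that were well above background on both arrays. The ratios of the 4 genes given as bounds may be lower still. DTL is the substrate receptor of the CRL4 ubiquitin ligase that degrades CDT1 on chromatin-bound PCNA. Its mean signal was 138 in the control and 14.8 after knockdown, with a log2 ratio of -3.22 ± 0.28 (SD over 10 spots). The 10 spots lay between 130 and 149 on the control siRNA array and between 11.03 and 17.8 on the periostin siRNA array. Each was well above background on both, but they are repeat prints on 1 array per condition and not replicate cultures. With normexp DTL was at -1.41, less than 3-fold, and CDC45, at -2.12, was lower than DTL. CDT1, which brings the MCM ring to ORC, was at 562 and 197, a ratio of -1.52 from 1 spot, or 35.0% of control. GMNN, geminin, which binds and blocks CDT1, was at 1547 and 1053, a ratio of -0.55. CDT1 and GMNN thus differed by 0.96 with a combined error of 0.29. CDC6, the ATPase that works with ORC in loading, had signals of 4.21 and 4.46, not well above background on either array, so no ratio is given. The median of the 3 measured genes was -1.52.

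The 6 subunits of the MCM2 to MCM7 ring were all lower, by less than 3-fold, with a median of -0.46. MCM6 had the lowest ratio, from 841 to 400.1 (-1.07), followed by MCM5, from 705 to 420.2 (-0.75). MCM3 was at 1750.0 and 1262 (-0.47), MCM7 at 6288 and 4581 (-0.46) and MCM4 at 463 and 359 (-0.37). MCM2 had the highest ratio, with 441 and 384 (-0.20), about the size of its error of 0.20. The lowest and the highest ratio, picked by their values, differed by 0.87 with a combined error of 0.29. Whether the subunits changed by unequal amounts was not tested. Neighbours in this order, other than MCM6 and MCM5, differed by less than that error. Further probes gave -0.94 for MCM5 and -0.18 for MCM7. With normexp their median was -0.49 and MCM6 was at -0.98.

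**Figure D2:**
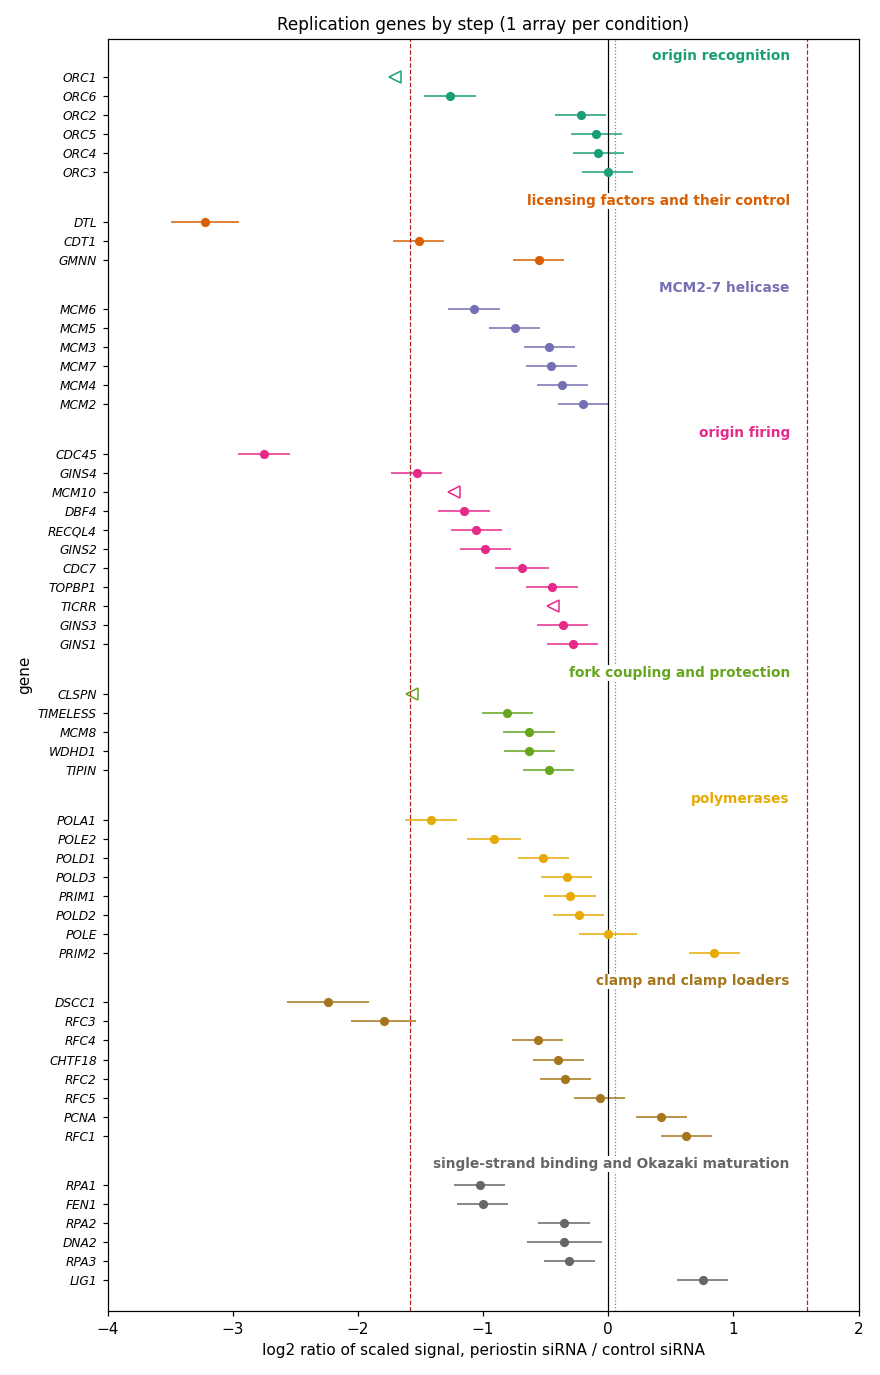
Log2 ratio (periostin siRNA over control siRNA) for the 53 replication genes with a ratio, grouped by step and ordered within each step. Circles are genes well above background on both arrays with the propagated spot error as a bar, and open triangles are bounds for ORC1, MCM10, TICRR and CLSPN, whose true ratio may lie further to the left. The solid line marks 0, the dotted line the median of all named genes, 0.06, and the dashed lines 3-fold. Of 53 genes, 49 lie left of 0, and PRIM2, PCNA, RFC1 and LIG1 lie right of it.

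All 11 genes of origin firing had a ratio below 0, against 45.5% of all named genes, with a median of -0.98. Lower by more than 2-fold were 5 of them, against 6.42% of all named genes. MCM10, among these 5, and TICRR are bounds, whose ratio could only be below 0 by the rule used. With normexp the median was -0.40, and of the 5 only CDC45 and GINS4 were still past 2-fold. DBF4 was at -0.78, RECQL4 was just short of 2-fold and the bound of MCM10 was -0.33. CDC45, the helicase subunit that marks a firing origin, was at 555 and 82.3, a ratio of -2.75 with a propagated error of 0.21, and its signal with periostin siRNA was 14.8% of control. It stayed past 3-fold in each of the 9 alternative ways of processing, from -2.88 with scaling on the median to -2.12 with normexp where no other replication gene was past it. The value rests on 1 spot. Its promoter, shown above, is the one with CCAAT 4 times. The 4 subunits of GINS, which is added to the ring together with CDC45, were unequal. GINS4 was at 601 and 208 (-1.53) and GINS2 at 471 and 239 (-0.98 ± 0.07, SD over 10 spots), whereas GINS3 was at 291 and 227 (-0.36) and GINS1 at 432 and 355 (-0.28). GINS4 and GINS1 differed by 1.25 with a combined error of 0.29.

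The kinase CDC7 was at 73.2 and 45.4 (-0.69) and its activating subunit DBF4 at 151 and 68.1 (-1.15). They differed by 0.46 with a combined error of 0.30. RECQL4, a helicase that is needed to start replication and is mutated in Rothmund-Thomson syndrome, was at 1487 and 715 (-1.06). TOPBP1, the scaffold for GINS and CDC45, was at 175 and 128 (-0.45). MCM10, which acts on the assembled helicase at firing, had a signal of 18.2 with control siRNA and 1.79, not well above background, with periostin siRNA, and was at least 2.35-fold lower. TICRR, the partner of TOPBP1 also called treslin, was at 10.6 and 2.37 and at least 1.36-fold lower. For MCM10 and TICRR the control signal was itself close to the lowest signal well above background on that array, 7.55, so the size of the difference could not be measured.

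All 5 genes that couple the fork or protect it were lower, with a median of -0.63, which was -0.42 with normexp. CLSPN among them is a bound, which could only come out lower by the rule used. CLSPN, claspin, links the fork to checkpoint kinase CHEK1. Its signal was 23.1 with control siRNA and 3.92, not well above background, with periostin siRNA. CLSPN was at least 2.97-fold lower, but its bound was only -0.37 with normexp. TIMELESS and TIPIN form the fork protection complex. TIMELESS was at 1972 and 1129 (-0.81) and TIPIN at 947 and 681 (-0.48), and their difference of 0.33 was about as large as its error of 0.29. WDHD1, which ties polymerase alpha to the helicase, was at 301 and 194 (-0.63 ± 0.10, SD over 10 spots). MCM8, a relative of the ring subunits that acts with MCM9 in repair, was at 224 and 144 (-0.63).

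**Figure D3:**
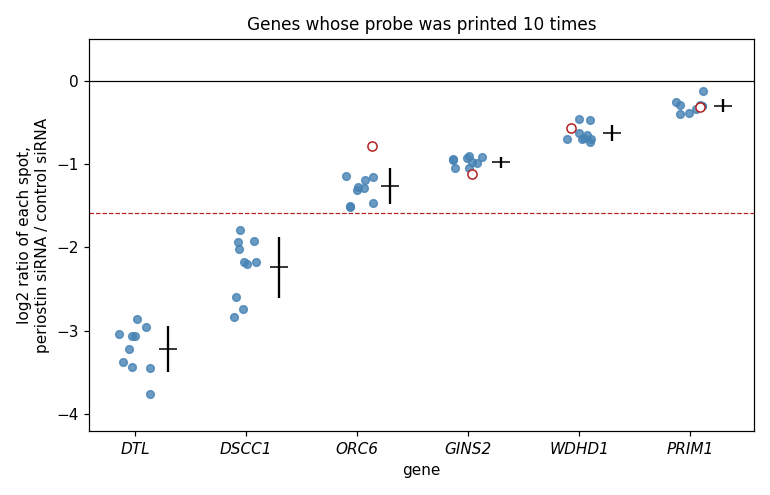
Log2 ratio of each of the 10 spots of the 6 replication genes whose probe was printed 10 times, with the mean and SD in black beside them. Red open circles are spots with an outlier flag, the dashed line is 3-fold and the solid line 0. The spots of DTL lie between -3.76 and -2.86 and those of DSCC1 between -2.83 and -1.79, and those of the other four genes lie above the dashed line, up to -0.12 for PRIM1.

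The 8 polymerase genes measured had a median of -0.32, with 7 below 0 and PRIM2 above. POLA1, the catalytic subunit of polymerase alpha, which starts each strand, was at 229 and 85.8 (-1.42), the lowest of this group. The primase subunits that work with it gave 121 and 98.1 for PRIM1 (-0.30 ± 0.08, SD over 10 spots) and 356 and 641 for PRIM2, a ratio of 0.85. With this probe PRIM2 was the highest of the 53 genes. A dimmer probe of PRIM2 gave 0.80 and the dimmest, at 26.3 and 28.9, gave 0.13, so that its mean over the probes was 0.59, which was below LIG1 and RFC1. PRIM2 has near-identical copies in the genome, and it is uncertain which of them these probes read. POLA1 and PRIM2 differed by 2.26 with a combined error of 0.29. For polymerase delta, which copies the lagging strand, POLD1 gave 659 and 460.5 (-0.52), POLD3 412 and 328 (-0.33) and POLD2 801 and 680.3 (-0.24), and the largest difference between them, 0.28, was no larger than its error of 0.29. For polymerase epsilon, which copies the leading strand, the catalytic subunit POLE was at 33.9 and 33.8 (-0.0028), with a sign that turned with normexp and without scaling, and POLE2 was at 73.4 and 39.0 (-0.91). With normexp POLE2 was at -0.42.

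The 8 genes of the clamp and its loaders ranged from -2.24 to 0.62, with a median of -0.37, and 6 of them were below 0. PCNA, the ring that holds polymerases on DNA, was higher with periostin siRNA in each of its 3 probes, at 4535 and 6079.9 (0.42), 4378 and 5817 (0.41) and 3002 and 4122 (0.46). The 3 probes differed by 0.05, less than the error of any of them. RFC1, the large subunit of the clamp loader, was at 545 and 841 (0.62). Of the small subunits that RFC1 shares the complex with, RFC5 was at 710.0 and 677 (-0.07), RFC2 at 333 and 262 (-0.34), RFC4 at 664 and 449 (-0.56) and RFC3 at 59.4 and 17.2 (-1.79, propagated error 0.26). RFC3 was 3.47-fold lower. A dimmer probe of RFC3 had 32.2 with control siRNA and was not well above background with periostin siRNA. RFC1 and RFC3 differed by 2.42 with a combined error of 0.33. DSCC1, which with CHTF18 forms an alternative loader tied to sister chromatid cohesion, was at 51.7 and 10.96 (-2.24 ± 0.36, SD over 10 spots), and 7 of its 10 spots were well above background with periostin siRNA. CHTF18 was at 460.1 and 349 (-0.40). With normexp RFC3 and DSCC1 were at -0.63 and -0.65, below 2-fold, whereas RFC1, at 0.59 with normexp, and PCNA were above 0 in each of the 9 alternatives, with the lowest values at 0.50 and 0.29.

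RPA, the trimer that coats single-stranded DNA, had its largest subunit RPA1 at 3309.5 and 1625 (-1.03), with a dimmer probe at -0.81. RPA2 was at 1572 and 1230.2 (-0.35) and RPA3 at 3561 and 2868 (-0.31), so RPA1 and RPA3 differed by 0.71 with a combined error of 0.29. Of the enzymes that finish Okazaki fragments, the flap nuclease FEN1 was at 235 and 117, or 2.01-fold lower, and the nuclease and helicase DNA2 was at 21.0 and 16.5 (-0.35), with a propagated error of 0.30. LIG1, the ligase that seals the fragments, was higher, at 943 and 1589 (0.75), and was above 0 in each of the 9 alternatives, the lowest value being 0.63. The 6 genes had a median of -0.35. With normexp RPA1 was at -0.95 and FEN1 at -0.75, both less than 2-fold. LIG1 and PCNA carry an E2F form in the promoters shown above, as do MCM6, DTL and POLA1, which were lower. RFC1 and PRIM2, which were higher, carry none, and neither does CDC45, which was lower. A link between these letters and the ratios was not tested.

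**Figure D4:**
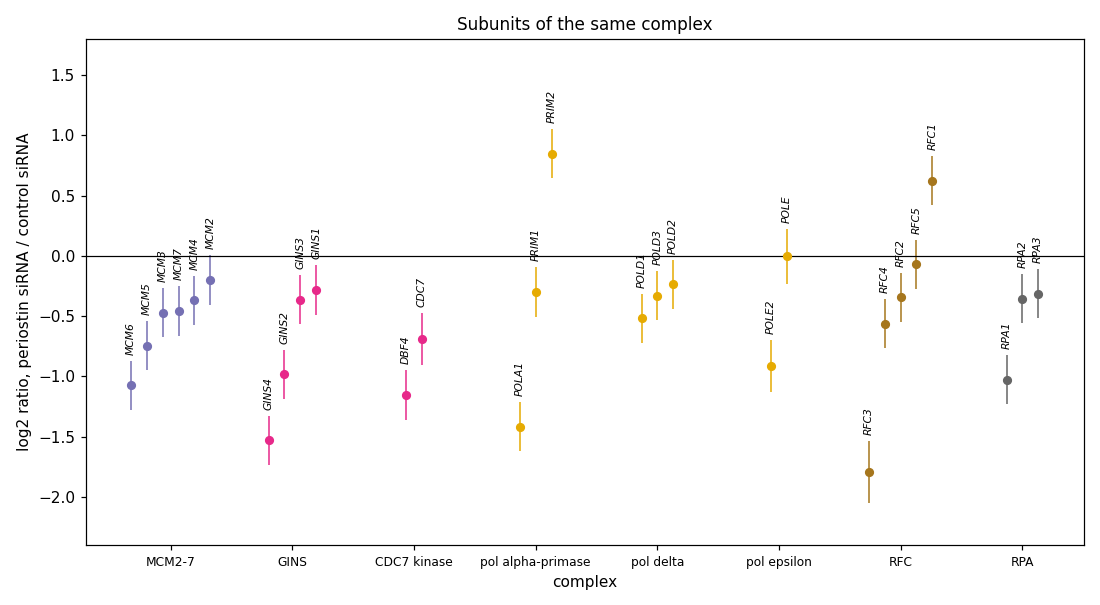
Log2 ratio (periostin siRNA over control siRNA) of the subunits of 8 replication complexes, each a point with its propagated spot error, ordered within a complex. The subunits of polymerase delta lie within 0.28 of each other, those of the MCM2 to MCM7 ring within 0.87, those of GINS within 1.25, those of polymerase alpha with primase within 2.26 and those of RFC within 2.42.

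Separate probes of one gene mostly gave like values. In 9 genes more than 1 probe stood well above background on each array, and in 8 of these the probes had the same sign and in 8 they differed by less than 0.50. The exceptions were ORC4, with values on either side of 0, and PRIM2, with a difference of 0.72.

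Further genes of replication were closer to equal signal, by their median, than the replication genes described above. Both lists were drawn up by role, but with earlier results of these data known. The difference between the lists is therefore not a comparison made blind to the values. The 30 genes hold MCM binding and licensing helpers, minor polymerase subunits, other clamp loaders and unloaders, the CRL4 ligase core, histone chaperones of the fork, ribonuclease H2 and the fork checkpoint. A ratio could be given for 28, with a median of -0.19, and 18 were below 0, or 64.3%, against the 45.5% of all named genes. None was lower by more than 2-fold, against 6.42% of all named genes, or higher by more than 2-fold, against 7.97%. Those named here were chosen after their values were seen. RNASEH2A, the catalytic subunit of the enzyme that removes RNA from DNA, had the lowest ratio, with 1784 and 913 (-0.97), and TOP1, the topoisomerase ahead of the fork, followed with 896 and 496 (-0.85). MCM9, the partner of MCM8, had the highest, with 25.6 and 42.0 (0.71). The parts of the ligase that uses DTL gave 0.18 for DDB1, -0.41 for CUL4A, 0.07 for CUL4B and -0.19 for RBX1. CHEK1, the kinase that CLSPN serves, gave -0.22 at 471 and 404, and ATR, the kinase above it, gave -0.45 at 733 and 536.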

How the data were processed

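MRC-5 RNA was measured on 1 single-colour (Cy3) Agilent array per condition, control siRNA and periostin siRNA. The authors deposited scanner files of spot intensity, background-subtracted and freed of spatial trend by Feature Extraction, without scaling between arrays. The file headers name version 11.5.1.1 and the labels 12.0.3.1. The array design was annotated on hg19. A second deposited file gives normalized intensity by a method not given in the sources used here. For probes printed once it equalled the scanner intensity times 3.65 (control siRNA) or 3.54 (periostin siRNA), to within 0.001 on the log2 scale.

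Python 3.11.15 (numpy 2.4.6, pandas 2.3.3) was used throughout, and limma 3.58.1 under R 4.3.3 for normexp. The log2 of the processed signal was scaled on its 75th percentile over 58717 spots other than controls, 372 with control siRNA and 383 with periostin siRNA. Spots well above background were 58.0% and 58.9%, and 0 were saturated. Accessions matched 38222 spots (65.1%) to the RefSeq genes of GRCh38.p14, used for names and for the promoters, which are given in its coordinates. Repeat spots were averaged as log2 values and the brightest probe stood for a gene. Where only 1 array had it well above background, the ratio is a bound: the other array was given its own signal or, if higher, the lowest scaled signal that counted as well above background there, 7.55 (control siRNA) or 7.77 (periostin siRNA). Where it was so on neither, no ratio was given. The error of a difference between genes combines their propagated spot errors. The 3-fold threshold is that of the study. By the rule for naming genes, all 55 replication genes are accounted for, with both signals for those past 3-fold and for the lowest and highest of each step, and further replication genes are named only if past 3-fold. None was, so those named were chosen after their values were seen. The script was tested on simulated data. The genes, their steps, the further replication genes, the markers and the motifs were chosen with earlier results of these data known.

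The number of arrays limits the precision. The alternatives were normexp, applied to the median spot brightness because the files hold no mean, quantile normalization, scaling on the median, on spots detected on both arrays or not at all, the deposited table, the mean over probes, filters on dim and flagged spots, and a 2-fold threshold. The search of protein motifs was not run, since no protein sequences were used here.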

Additional observations from a re-analysis of the deposited data

How the results depend on the processing

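No paired analysis was possible because only 1 array was made with either siRNA, which also means that there was no replicate to leave out. The median of the replication genes and of each step was below 0 under all 9 alternatives that could change it, and no gene past 3-fold changed sign. Among the 53 genes the sign turned for POLE with normexp and for ORC3 and POLE without scaling. Normexp, whose offset draws dim ratios towards 0 by construction, left 1 gene (CDC45) lower by more than 3-fold, against 1.19% of all named genes. Its medians were -1.35 for the licensing factors, -0.40 for origin firing and -0.42 for fork coupling. Scaling on the median, which shifted the median of all named genes by -0.13, gave 8 genes lower by more than 3-fold and medians of -0.60 for all replication genes, -0.29 for origin recognition, -1.64 for licensing factors, -0.59 for the MCM2 to MCM7 ring, -1.11 for origin firing, -0.76 for fork coupling, -0.45 for polymerases, -0.50 for the clamp and its loaders and -0.48 for single-strand binding and Okazaki maturation. The 3 genes added by it were CDT1, GINS4 and CLSPN, and 3.27% of all named genes were lower by more than 3-fold with it. CLSPN was also past 3-fold with quantile normalization and with the deposited table. At a 2-fold threshold 16 genes were lower, and a filter added after the data were seen, on a mean signal over both arrays above the 75th percentile, left 0 lower by more than 3-fold. Of all named genes that passed this filter 1.37% were lower by more than 3-fold. That filter depends on the ratio itself, so its 0 cannot show that bright genes lack large differences. CDC45, CDT1, GINS4, GINS2 and POLD3 were above that level in the control and were removed by their lower signal after knockdown. PRIM2, at 356 in the control and below that level there, passed through its signal of 641 after knockdown. The 26 replication genes that passed had a median of -0.36 with 84.6% below 0, against 0.04 and 46.0% for all named genes that passed. This median and this share rest on the same selection and are no independent check. No replication gene was higher by more than 3-fold in any of these settings. The other 7 settings left every count within 1.5 times and every median within the SD between replicate spots, 0.12. Signal close to background limits what can be said of ORC1, MCM10, TICRR and CLSPN, and of CDC6.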
